A study of Rattus norvegicus with 16 samples.

Results

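The 6 microRNAs (miRNAs) described here are rno-miR-1, rno-miR-133a, rno-miR-133b, rno-miR-206, rno-miR-208 and rno-miR-499, the rat miRNAs of striated muscle, written below without the species prefix. All rats had gone without water for 3 days and then received the diuretic furosemide into muscle at 10 mg/kg. The 6 miRNAs were measured in kidney and plasma 8 h after an injection of X-ray contrast medium or saline. They were taken by their names in the array design, whatever their values, and are 6 of the 350 rat miRNAs on each array. Of these, 4 were detected in plasma on at least 6 of 8 arrays, 2 in kidney on at least 6 of 8 arrays, and miR-208 on no array of either tissue. miR-133b was the only one detected on at least 6 arrays of both. Of all 350 miRNAs, 132 were detected on at least 6 arrays of both tissues and 199 on at least 6 of at least 1 tissue.

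MiRNAs are short RNAs that pair with messenger RNAs through their seed, the bases near their 5′ end, and lower the output of these targets. Heart and skeletal muscle are rich in a small set of them: miR-1 and miR-133a in both kinds of striated muscle, miR-206 and miR-133b mainly in skeletal muscle, and miR-208 and miR-499, which lie within genes of myosin heavy chains, in heart or in heart and slow fibres. MiRNAs also leave cells and can be measured in blood plasma, where these 6 are widely followed as markers of muscle and heart injury.

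The mature sequences are shown because the 6 fall into 3 pairs by seed, and the results are given pair by pair. In the pair of miR-208 and miR-499 the seeds are alike but not the same. The sequences are those of RefSeq for rat build GRCr8, all 6 matched through the current names of the arms. Bases 2 to 8 are in capitals as the seed, and the positions on the chromosomes are given further below.

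miR-1: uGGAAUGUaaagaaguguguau
miR-206: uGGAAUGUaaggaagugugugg
miR-133a: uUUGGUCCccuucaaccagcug
miR-133b: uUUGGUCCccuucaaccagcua
miR-208: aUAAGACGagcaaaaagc
miR-499: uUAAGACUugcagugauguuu

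miR-1 and miR-206 had the same seed and 19 of 22 identical bases. Counted from 1 at the 5′ end of miR-1, they differed by A11G, A21G and U22G. miR-133a and miR-133b had 21 of 22 identical bases and differed by G22A, at the last base. The arrays read each with its own probes, whose sequences are not used here, so how far a probe for one reads the other was not tested. miR-208 and miR-499 shared the first 6 of 7 seed bases and 10 of 18 aligned bases.

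The pairs by seed were not the pairs by place. miR-1 (chr18:2160339-2160360, minus strand) and miR-133a (chr18:2157886-2157907, minus strand) lay 2431 bases apart, within the span of Mib1, a protein-coding gene. miR-206 (chr9:30590747-30590768, plus strand) and miR-133b (chr9:30594629-30594650, plus strand) lay 3860 bases apart, within a long non-coding RNA gene. miR-208 (chr15:32395568-32395585, minus strand) lay within Myh6 and miR-499 (chr3:164570616-164570636, plus strand) within Myh7b, both genes of myosin heavy chains.

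All rats were male Sprague-Dawley animals that went without water for 3 days and then received furosemide, a diuretic, into muscle at 10 mg/kg. CI-AKI rats, named for the model of contrast-induced acute kidney injury, were then given Omnipaque (iohexol, 350 mg iodine per ml) at 10 ml/kg into the tail vein over 5 min, and control rats the same volume of saline. Blood and kidneys were taken 8 h later. Each array read the RNA of 3 rats mixed together, with 4 such pools in each of 4 groups (kidney CI-AKI, kidney control, plasma CI-AKI and plasma control). The count of 24 rats in all takes each rat to have given both kidney and plasma. The main comparisons across tissues did not pair kidney pools with plasma pools.

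Some limits of these arrays touch every result. The samples carry 8 letter codes, once in each tissue, and 6 of the 8 letters have opposite treatments in kidney and plasma. The labels do not explain the letters, and groups were taken from the sample titles. All kidney arrays lay on 1 slide and all plasma arrays on another, so tissue, slide and scan cannot be told apart. On both slides the even columns held CI-AKI pools and the odd columns control pools, so column and treatment cannot be told apart. Signals of different miRNAs come from different probes and have no common scale, so no miRNA's level is set against another's here. Sums of signals over a list of miRNAs, given below, are descriptions in which the brightest probes weigh most.

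The fourth plasma pools were weak arrays in both groups. They had 95 detected miRNAs in CI-AKI and 84 in control, against 156 to 211 on the other plasma arrays and 169 to 216 on the kidney arrays. Their lowest detected scaled signals were 18.4 in CI-AKI pool 4 and 20.9 in control pool 4, against 0.080 to 3.99 on the other plasma arrays, so a dim miRNA there has a value with little meaning. The tissue labels went with their markers. miR-196a, an epithelial kidney miRNA, was detected on 8 of 8 kidney arrays and on 0 of 8 plasma arrays, and miR-122, the liver miRNA of plasma, on 0 of 8 kidney arrays and on 8 of 8 plasma arrays. The other kidney epithelial miRNAs followed were detected in plasma too. These were miR-192 and miR-30a on 8 plasma arrays, miR-204, miR-200b and miR-200c on 6, and miR-194 on 4.

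The comparison of kidney with plasma asked where each muscle miRNA was found, and needs no treatment label. For it, the mean processed signal of a miRNA on each array was scaled to a common 75th percentile over 65 miRNAs that all 16 arrays detected. Values below a floor of 1.31 were set to it, log2 was taken, and limma was fitted to the 199 miRNAs detected on at least 6 of 8 arrays of a tissue.

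miR-1, a miRNA of heart and skeletal muscle alike, was detected on 0 of 8 kidney arrays and on 8 of 8 plasma arrays. Its kidney signals were 0.383, 0.304, 0.303 and 1.31 in CI-AKI pools 1 to 4 and 1.26, 0.215, 0.208 and 0.480 in control pools 1 to 4. Its plasma signals were 122, 164, 134 and 296 in CI-AKI pools and 123, 81.1, 202 and 152 in control pools. Every kidney array lay near background and below every plasma array. In tissue RNA of this kind, fewer cells of a type and less RNA per cell cannot be told apart. Kidney read at least 155-fold lower than plasma, a bound set by the lowest detected signal of each kidney array or the miRNA's own signal where that was higher. Within treatments the bound was at least 188-fold lower in kidney in CI-AKI pools and at least 128-fold lower in control pools.

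miR-206, the skeletal muscle miRNA with the same seed, was detected on 0 of 8 kidney arrays and on 6 of 8 plasma arrays, all but the fourth pools. It ranged between 0.155 and 2.57 over the kidney arrays and between 8.03 and 44.9 over the plasma arrays, with no overlap. Over the 6 plasma arrays that detected it, a restriction chosen after the values were seen, kidney read at least 20.9-fold lower (22.9-fold with the undetected pools 4 included, which is no bound). Both probes of the miRNA gave the same picture. In kidney 2 and 3 of 80 spots for each probe were well above background, against 47 and 50 of 80 in plasma.

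miR-133a, encoded beside miR-1, was also detected on 0 of 8 kidney arrays and on 6 of 8 plasma arrays, again all but the fourth pools. Its kidney signals ranged between 0.337 and 1.36 and its plasma signals between 7.61 and 55.5, the highest being that of control pool 4, where it was not detected. Over the 6 plasma arrays that detected it, again a restriction chosen afterwards, kidney read at least 15.2-fold lower (19.0-fold with the undetected pools 4 included). Most of its plasma spots well above background belonged to 1 of its 2 probes. That probe had 0 of 80 spots well above background in kidney and 53 of 80 in plasma, and the other had 0 of 80 in kidney and 5 of 80 in plasma.

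miR-133b was detected on 6 of 8 kidney arrays, all but the third pool of each group, and on 8 of 8 plasma arrays. In kidney it read 2.93, 3.22, 3.24 and 5.21 in CI-AKI pools 1 to 4 and 6.02, 2.95, 2.42 and 3.23 in control pools 1 to 4. In plasma it read 398, 904, 439 and 258 in CI-AKI pools and 192, 308, 546 and 301 in control pools. All kidney arrays lay below all plasma arrays. The mean was 3.65 ± 1.26 in kidney and 418 ± 225 in plasma (SD, n = 8 each), 108-fold lower in kidney on the log2 scale of the fit.

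The kidney detection of miR-133b rested on 1 of its 2 probes. That probe had 47 of 72 spots well above background in kidney and 72 of 72 in plasma. The other had 3 of 80 spots well above background in kidney and 73 of 80 in plasma. miR-133a, which differs from miR-133b in the last base alone, had none in kidney from either probe.

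Among the 132 miRNAs detected on at least 6 of 8 arrays of both tissues, miR-133b had the lowest kidney minus plasma difference. The next lowest were miR-223, a myeloid and platelet miRNA, with a difference of -5.48 on the log2 scale, and miR-150, a lymphocyte miRNA, with a difference of -5.39.

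miR-208, the heart miRNA in Myh6, was detected on 0 of 16 arrays. Its background-corrected scaled signal was below 0 on every array, between -1.32 and -0.30 in kidney and between -41.1 and -0.015 in plasma. Its spots were well above background 0 times of 160 in kidney and 4 times of 160 in plasma. No difference can be given for it.

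miR-499, which shares the first seed bases of miR-208 and lies in Myh7b, ran the other way. It was detected on 8 of 8 kidney arrays and on 1 of 8 plasma arrays, control pool 2. Its kidney signals were 27.2, 22.3, 17.9 and 23.1 in CI-AKI pools 1 to 4 and 21.9, 25.4, 25.9 and 20.8 in control pools 1 to 4. Its plasma signals were -1.04, 3.74, 3.05 and -4.99 in CI-AKI pools and 1.95, 3.28, 3.52 and 3.43 in control pools. All kidney arrays lay above all plasma arrays. In CI-AKI pools kidney read at least 2.89-fold higher than plasma, and at least 4.92-fold higher without plasma CI-AKI pool 4, left out after the values were seen. All 160 of its spots were well above background in kidney, and 9 of 160 in plasma, with both probes alike.

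**Figure D1:**
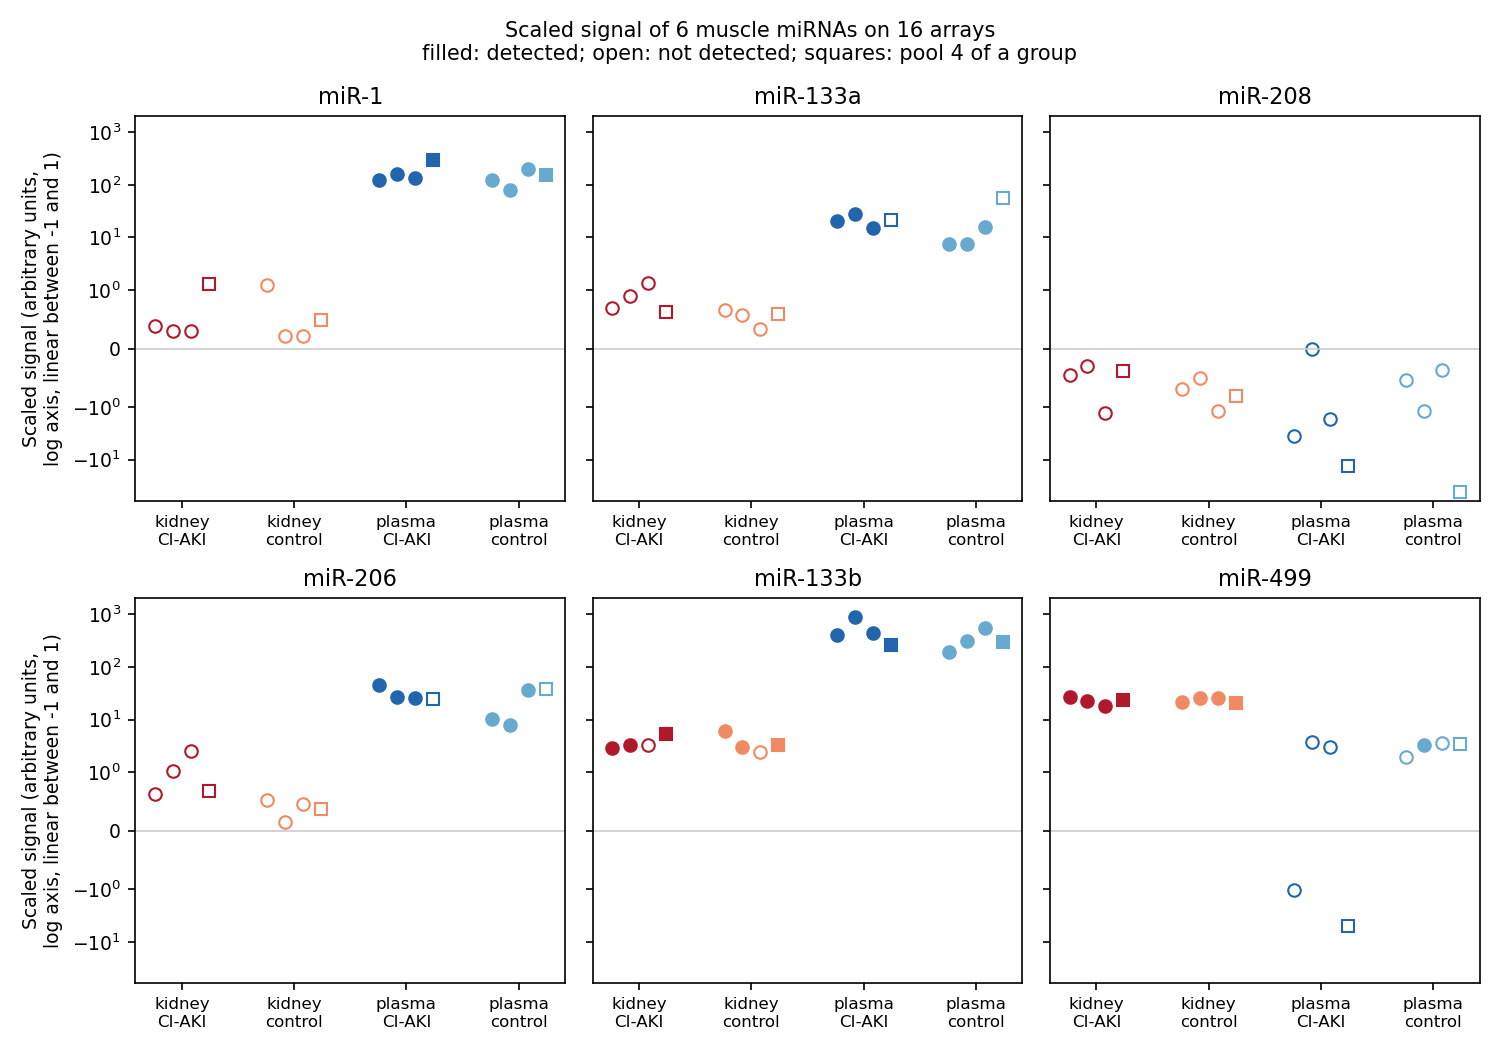
Scaled signal (arbitrary units, log axis that is linear between -1 and 1) of each muscle miRNA on every array of kidney CI-AKI, kidney control, plasma CI-AKI and plasma control pools, with filled points where the array detected the miRNA and squares for pool 4. miR-1, miR-206, miR-133a and miR-133b lay lower on all kidney arrays than on any plasma array, miR-499 lay higher, and miR-208 was detected nowhere.

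**Figure D2:**
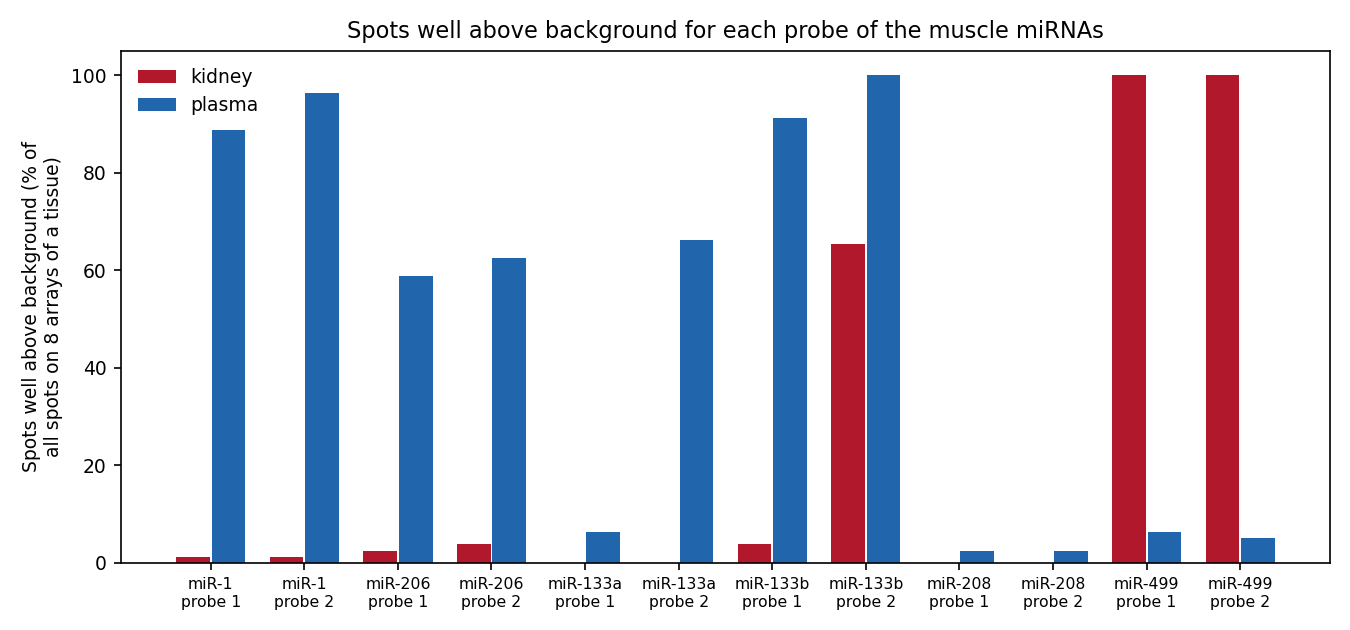
Share of spots well above background (percent of all spots of a probe on the 8 arrays of a tissue), kidney in red and plasma in blue, for both probes of each muscle miRNA. In plasma 1 probe of miR-133a has 53 of 80 such spots and the other 5 of 80, in kidney 1 probe of miR-133b has 47 of 72 and the other 3 of 80, and both probes of miR-499 have all of theirs in kidney.

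In limma, 5 muscle miRNAs were tested and had an adjusted p under 0.05. Of all 199 miRNAs tested, 165 passed (82.9%), 63 higher in kidney (31.7%) and 102 lower (51.3%), and 134 (67.3%) had kidney and plasma arrays that did not overlap, so the count of 5 is not a result about these miRNAs. miR-1, miR-133a and miR-206 entered the test through plasma alone and miR-499 through kidney alone. The median kidney minus plasma difference of all tested miRNAs was -0.68 on the log2 scale.

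On this scale miR-133b, the one muscle miRNA measured in both tissues, fell by 6.75 in kidney relative to plasma (SE 0.28, 95% confidence interval -7.34 to -6.17, adjusted p = 1.64e-13). The others were not detected in kidney (miR-1, miR-206 and miR-133a) or were detected on 1 plasma array (miR-499), so their fitted differences are set by the floor and by the filter, and their p-values are not given. As descriptions, these differences were -6.83 for miR-1, -4.03 for miR-206, -3.75 for miR-133a and 3.20 for miR-499.

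For miR-133b the comparison was repeated within each treatment. Among CI-AKI pools alone, where 152 of 209 tested miRNAs were called (72.7%), its kidney minus plasma difference was -6.93 (SE 0.37, adjusted p = 2.89e-07). Among control pools alone, where 165 of 210 were called (78.6%), it was -6.51 (SE 0.38, adjusted p = 1.30e-06). Without both plasma pools 4 it was -6.66 (SE 0.29, adjusted p = 7.66e-13).

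The scaling set how all miRNAs divided between the tissues. With other signal processing the median of all tested miRNAs was -0.02 (percentile over all miRNAs), 0.37 (quantile normalization), 1.004 (no scaling), -0.20 (median scaling), 0.39 (the authors' processed values) and -1.66 (normexp background correction). The numbers higher in kidney were 84 of 170 called, 92 of 166, 91 of 128, 80 of 171, 86 of 157 and 17 of 166, in the same order. Relative to the median of each setting, and with the floor-set values described above, miR-1 lay between -6.59 and -1.11 and miR-133b between -6.79 and -1.97, both over 35 settings, and miR-499 between 0.35 and 4.29 over 35. miR-133a lay between -3.59 and -0.17 and miR-206 between -3.82 and -0.24, over 29 settings each. With normexp, which adds an offset of 50 to every signal, the signs relative to the median were the same, but the fitted difference of miR-499 itself turned to -1.31.

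**Figure D3:**
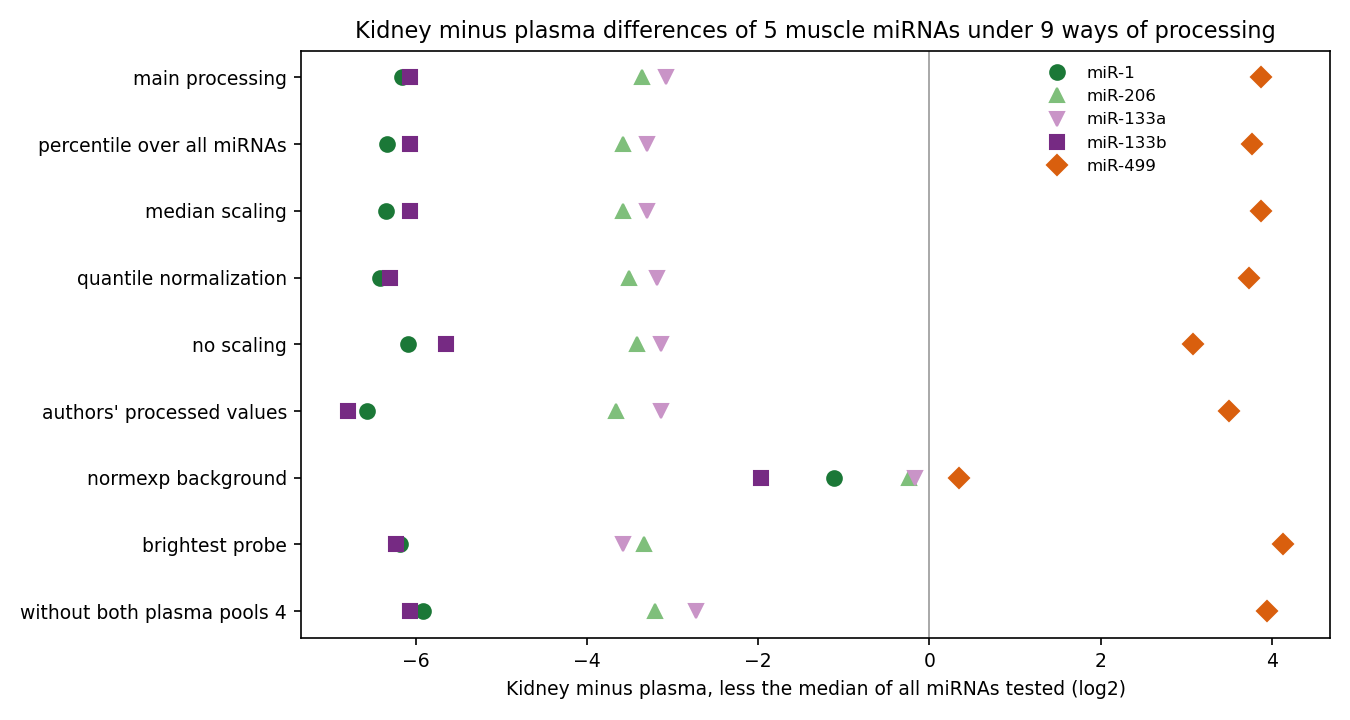
Kidney minus plasma difference of 5 muscle miRNAs less the median of all miRNAs tested (log2, horizontal axis) under 9 ways of processing the signals (vertical axis). miR-1, miR-133b, miR-206 and miR-133a lay left of 0 and miR-499 right of 0 in each, and the points lay closest to 0 with normexp, where miR-133a lay 0.17 below the median. Only miR-133b was measured in both tissues. The side of 0 of the others is set by the filter and the floor, so its agreement is no support.

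MiRNAs of other cell types differed between kidney and plasma as well. The 3 erythroid miRNAs all passed as lower in kidney, beside 51.3% of all tested, with summed signals of 792 to 898 in kidney and 5275 to 17190 in plasma. For miR-451, the main miRNA of red blood cells, the difference was -5.34 (SE 0.23, adjusted p = 3.69e-13), and it was detected on 8 of 8 kidney arrays. For miR-122, made in liver and not detected in kidney, the fitted difference was -11.10, also set by the floor, with signals of 0 to 1.07 in kidney after setting negative values to 0, and 689 to 6188 in plasma. The 2 smooth muscle miRNAs, miR-143 and miR-145, were also lower in kidney, with summed signals of 322 to 437 in kidney and 370 to 1879 in plasma. Of the 7 kidney epithelial miRNAs, 6 passed as higher in kidney, beside 31.7% of all tested, and the 7 had summed signals of 2397 to 2694 in kidney and 500 to 1307 in plasma. The part of blood cells or of other cell types in the muscle miRNA values was not tested.

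The plasma comparison asked whether contrast medium changed circulating muscle miRNAs after 8 h. Signals for it were scaled over the 74 miRNAs that all 8 plasma arrays detected, so the values below are on the plasma scale. Of 96 miRNAs detected on all 4 arrays of a group, limma called 0 (0%), and 5 had an unadjusted p under 0.05 (5.21%), or 10 with the replicate number as a block. miR-1 and miR-133b were among those tested.

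miR-1 read 59.3, 73.0, 64.8 and 143 in plasma CI-AKI pools 1 to 4 and 59.4, 39.4, 101 and 73.6 in control pools 1 to 4. The highest value was in CI-AKI and the lowest in control, and the groups overlapped. The difference was 0.30 (SE 0.38, 95% confidence interval -0.54 to 1.14, adjusted p = 0.941). Without CI-AKI pool 4 it was 0.06, and without control pool 2 it was also 0.06.

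miR-133b read 193, 404, 213 and 125 in plasma CI-AKI pools 1 to 4 and 93.1, 150, 274 and 146 in control pools 1 to 4. CI-AKI pool 4 lay below 3 of the 4 control pools. The difference was 0.47 (SE 0.42, 95% confidence interval -0.47 to 1.42, adjusted p = 0.941). Without CI-AKI pool 2, its highest array, the difference was 0.17.

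miR-133a and miR-206 were detected on 3 of 4 plasma arrays of each group and were tested where that was enough, among 184 miRNAs of which 0 were called (0%) and 6 had an unadjusted p under 0.05 (3.26%). miR-133a read 10.1, 12.2, 7.46 and 10.3 in CI-AKI pools 1 to 4 and 3.68, 3.71, 7.95 and 26.9 in control pools 1 to 4. miR-206 read 21.8, 11.9, 12.3 and 11.9 in CI-AKI pools 1 to 4 and 4.95, 3.90, 18.7 and 18.3 in control pools 1 to 4. For both, control pools 1 and 2 were the lowest of the 8 arrays and the groups overlapped. The differences were 0.42 (SE 0.60, adjusted p = 0.994) for miR-133a and 0.63 (SE 0.56, adjusted p = 0.994) for miR-206.

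The intervals leave room for sizeable changes in plasma. The upper bounds were 1.14 for miR-1, 1.42 for miR-133b, 1.78 for miR-133a and 1.89 for miR-206, each more than a doubling, and the lower bounds were all below 0. The SD within groups was 0.57 for miR-1 and 0.67 for miR-133b on the log2 scale, against a median of 0.51 over the 96 tested miRNAs.

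Leaving out both weak pools gave larger plasma differences, above all for miR-133a, miR-206 and miR-133b. With 3 pools a group, 182 miRNAs were tested and 0 called (0%), and 32 had an unadjusted p under 0.05 (17.6%). miR-133a then had a difference of 1.28 (SE 0.37, unadjusted p = 0.0044, adjusted p = 0.115). miR-206 had 1.30 (SE 0.50, unadjusted p = 0.022, adjusted p = 0.239) and miR-133b 0.96 (SE 0.41, unadjusted p = 0.035, adjusted p = 0.239). miR-1 had 0.33 (SE 0.37, adjusted p = 0.740).

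None of these passed the threshold. The median over the 4 was 1.12, beside a median of 0.26 over all 182 tested, of which 130 (71.4%) lay above 0. This is a description, since the signals of the 4 were correlated over the same arrays and are not independent. The differences were also taken by row of the slide. In row 1, which held pools 1 and 2, the differences were 0.44 for miR-1, 1.59 for miR-133a, 1.24 for miR-133b and 1.87 for miR-206. In row 2, which held pools 3 and 4, they were 0.15, -0.74, -0.30 and -0.61 in the same order of miRNAs, with miR-133a and miR-206 undetected in both pools 4. CI-AKI pool 3 read lower than control pool 3 for all 4, and neither was among the weak arrays. The sign was thus positive in both rows for miR-1 alone. Over all 8 plasma arrays, pools 4 included, the 2 probes of a miRNA had the same sign for miR-1, miR-133b and miR-206. For miR-133a the probe near background had -0.56 and the other 0.54. The highest plasma value of the probe near background, 10.1, was in control pool 4, with 0 of 10 spots well above background. Its -0.56 thus leans on a weak array.

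**Figure D4:**
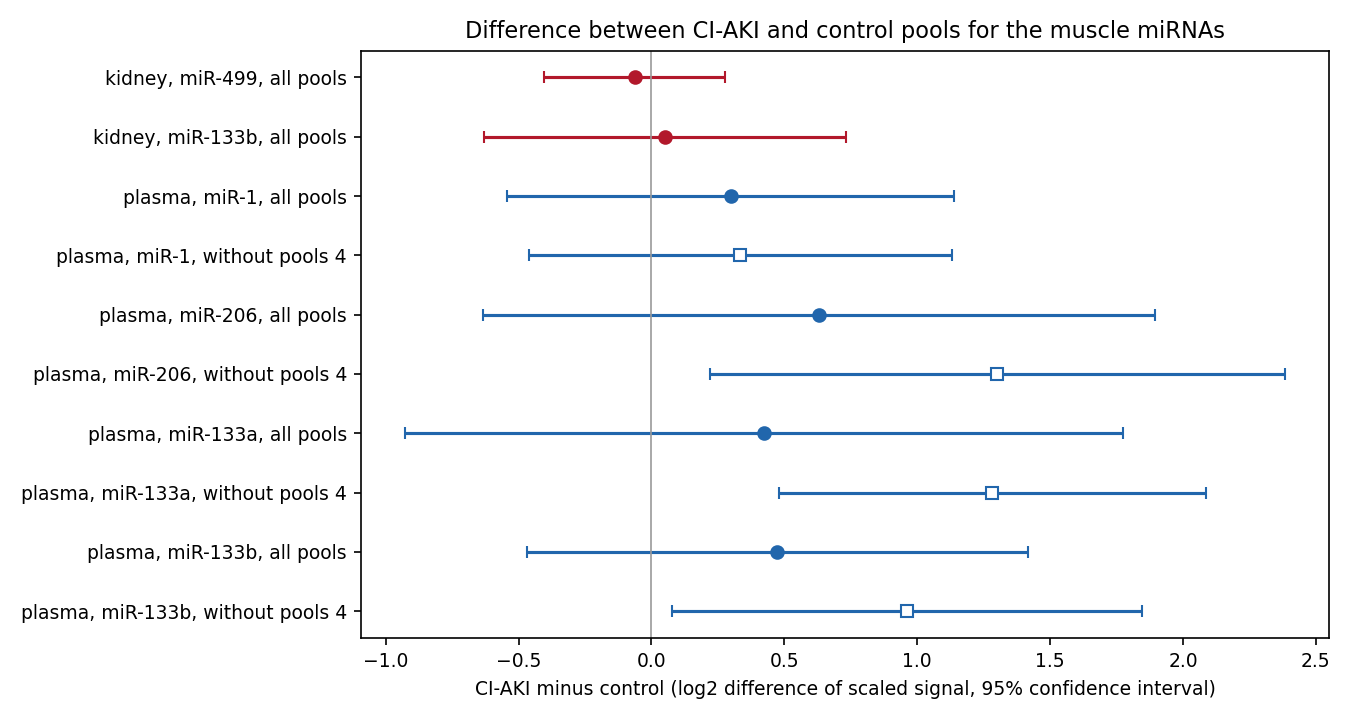
CI-AKI minus control difference (log2 scaled signal, horizontal axis, with the 95% confidence interval) of the muscle miRNAs in kidney (red) and plasma (blue), with open squares for plasma without both pools 4. With all pools every interval includes 0, and without pools 4 the unadjusted intervals of miR-206, miR-133a and miR-133b lie above 0 although none passed after adjustment.

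The plasma signals of the 4 miRNAs were also compared with each other across pools. Over the 8 plasma arrays the Pearson correlations of log2 signal between the 4 miRNAs lay between 0.08 (miR-1 with miR-133b) and 0.78 (miR-133a with miR-206). Without pools 4, over 6 arrays, they lay between 0.56 (miR-1 with miR-133b) and 0.86 (miR-133a with miR-133b and with miR-206). These are descriptions over few arrays that share their scaling and, in part, their treatment. Control pools 1 and 2 were below the mean of the 8 arrays for all 4 miRNAs, and CI-AKI pool 2 was above it for all 4.

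**Figure D5:**
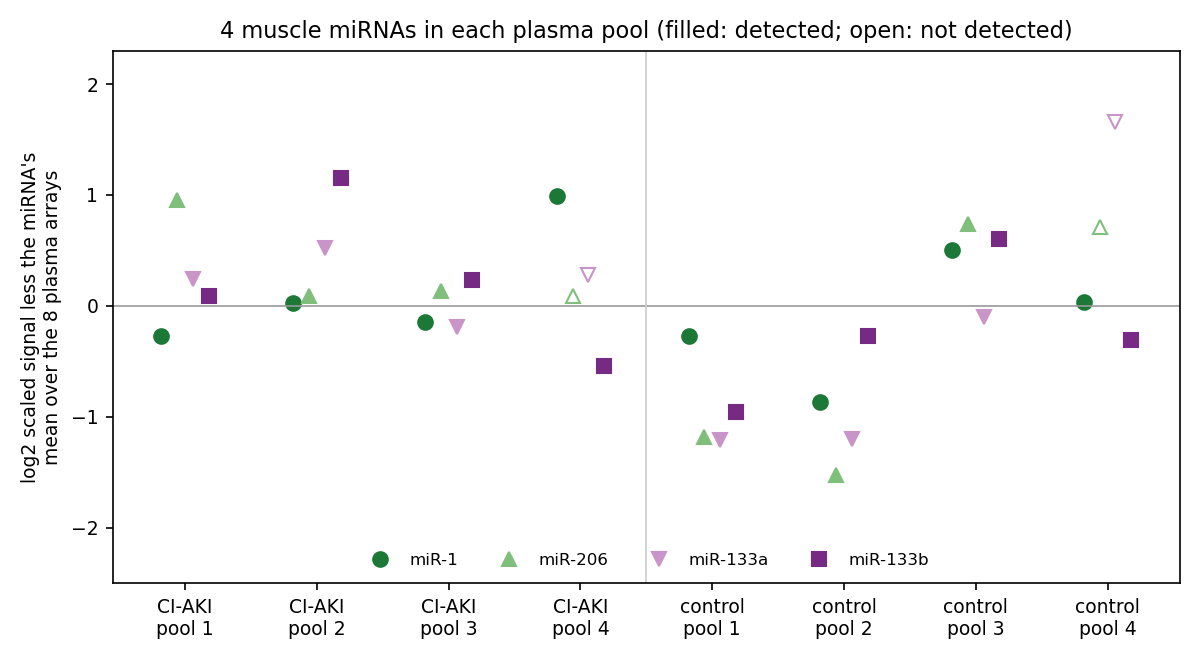
log2 scaled signal of 4 muscle miRNAs in each plasma pool, less the miRNA's mean over the 8 arrays, with CI-AKI pools on the left and control pools on the right and open symbols where the miRNA was not detected. All 4 lie below 0 in control pools 1 and 2, and all 4 lie above 0 in CI-AKI pool 2, miR-1 and miR-206 by little.

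The kidney comparison asked the same of the organ. With scaling over the 163 miRNAs that all kidney arrays detected, 3 of 176 tested miRNAs were called (1.7%), none of them a muscle miRNA, and 11 had an unadjusted p under 0.05 (6.25%). On this kidney scale miR-499 read 57.4, 46.1, 35.4 and 49.7 in CI-AKI pools 1 to 4 and 46.5, 52.7, 55.0 and 41.2 in control pools 1 to 4. Both the highest and the lowest array were CI-AKI pools. The means were 47.2 ± 9.17 in CI-AKI and 48.8 ± 6.22 in control (SD, n = 4 each).

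The difference of miR-499 was -0.06 (SE 0.15, 95% confidence interval -0.40 to 0.28, adjusted p = 0.940), and it was 0.05 without CI-AKI pool 3. The interval lies within a change of 1.5 times in either direction. By row of the slide the difference was 0.06 in row 1 and -0.18 in row 2.

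miR-133b in kidney was tested among the 191 miRNAs detected on 3 of 4 arrays of a group, of which 2 were called (1.05%) and 14 had an unadjusted p under 0.05 (7.33%). On the kidney scale it read 6.18, 6.66, 6.42 and 11.2 in CI-AKI pools 1 to 4 and 12.8, 6.12, 5.13 and 6.40 in control pools 1 to 4. One pool of each group stood above the rest. The difference was 0.05 (SE 0.30, 95% confidence interval -0.63 to 0.73, adjusted p = 0.953). miR-206 was detected on no kidney array, yet its signals lay between 1.32 and 5.08 in CI-AKI pools and between 0.321 and 1.10 in control pools without overlap. Being below detection, it was not tested. CI-AKI pools 1 and 4 (1.32 and 1.45) and all control pools lay under the floor of 1.79, so after flooring its groups were no longer apart. Of the 176 tested miRNAs, counted after flooring, 9 (5.11%) had groups that did not overlap.

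Whether the CI-AKI minus control difference differed between kidney and plasma was tested for miR-133b and miR-499, once detection on at least 1 array of each tissue was enough. The difference between the kidney and the plasma effect was -0.47 (SE 0.56, adjusted p = 0.995) for miR-133b. For miR-499 it was 0.43, which rests on plasma values below detection on all but 1 array. Neither was called. Of the 195 miRNAs tested, 1 was called (0.513%) and 7 had an unadjusted p under 0.05 (3.59%). Under the stricter filter, with detection on all arrays of a group in both tissues, no muscle miRNA was among the 87 tested, of which 1 was called (1.15%) and 3 had an unadjusted p under 0.05 (3.45%).

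A list of 13 miRNAs that act in muscle but are found in many tissues was followed beside the 6, and 12 of them were on the array. Between kidney and plasma 10 of 12 passed, 6 higher and 4 lower in kidney, a share near the 82.9% of all 199 tested. The list's median difference was 0.10, beside -0.68 for all tested. miR-378 rose by 1.51 in kidney relative to plasma (SE 0.15, adjusted p = 4.39e-08), and miR-214 fell by 2.11 (SE 0.19, adjusted p = 1.24e-08). Between CI-AKI and control 0 of 8 tested passed in plasma, with a median of -0.19 beside -0.09 for all 96 tested. In kidney 0 of 12 passed, with a median of 0.04 beside 0.03 for all 176 tested.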

How the data were processed

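Each of 16 arrays, 1-colour Agilent rat miRNA arrays, read 1 pool of RNA from 3 rats. Per the file headers, the authors extracted the intensity of each spot with Feature Extraction 10.7.3.1, and the deposited files hold, for each spot, a processed signal corrected for background and flags for outliers and for spots well above background, and a detection call for each miRNA. A second table, deposited by the authors in log2 units, has columns with medians of 2.28 and nearly equal quantiles (largest gap 0.048), and correlated with the scanner values at 0.879 to 0.997. How it was normalized is not given in the sources used here, and it served as an alternative.

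Processed signals were averaged over a probe's spots without outliers and then over a miRNA's probes. Signals were divided by the 75th percentile of the array, taken over miRNAs that all compared arrays detected (74 in plasma, 163 in kidney, 65 over both) and rescaled. Values under a floor (the lowest detected signal, as the median of the arrays, 0.976 in plasma, 1.79 in kidney and 1.31 over both) were set to it, and log2 was taken, which understates changes of dim miRNAs. No spot of a miRNA was saturated. limma 3.58.1 in R 4.3.3 (lmFit, eBayes, two-sided, Benjamini-Hochberg, threshold 0.05) was fitted to all miRNAs that passed the filter. It was also run on simulated data with independent noise. These had no floor and no weak arrays, so the run cannot tell how the fit performs on the arrays used here. Figures used matplotlib 3.10.9. The number of pools limits the precision.

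The 6 miRNAs and the lists were chosen with earlier results of these data known. The rule for named miRNAs was all 6, others of their families, up to 4 of the list with a role in muscle, markers of tissues, the 3 miRNAs most like each, and any a result turns on. Whether replicate numbers from the titles pair the pools was checked, since the labels state no pairing. In plasma, same-numbered CI-AKI and control pools had correlations of their deviations of 0.22, 0.49, 0.62 and 0.60, each above those with other numbers. Same-numbered pools also lay side by side in the same slide row, and both plasma pools 4 were weak. Pairing and place on the slide thus cannot be told apart, and the main fits used no block. In kidney the correlations were 0.20, 0.59, -0.10 and 0.15, and only that of pools 2 was above those with other numbers. Alternatives changed the background correction, scaling, probe summary, floor, filter, blocks and pools used.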

Additional observations from a re-analysis of the deposited data

Results flagged for a closer look

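Of 14 sets of 4 arrays examined, 2 held an array far from the other 3, and chance gives about 1 in 20. In plasma CI-AKI, miR-206 read 21.8 in pool 1 and 11.9 to 12.3 in the other pools, on the plasma scale. In kidney CI-AKI, miR-133b read 11.2 in pool 4 and 6.18 to 6.66 in the other pools, on the kidney scale.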

How the results depend on the processing

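In plasma the number of called miRNAs was 0 under all 24 alternatives, and in each the differences of miR-1 (0.06 to 0.67) and miR-133b (0.17 to 0.96) lay above 0 without passing the threshold. In kidney the number called, 3 in the main processing, was 0 with normexp background correction, 1 with quantile normalization, 1 with no scaling and 0 with detection required on every array. Leaving out 1 pool at a time moved the kidney difference of miR-499 between -0.17 and 0.052, and it was above 0 only without CI-AKI pool 3. The interaction called 1 miRNA in the main processing, 0 with normexp, with no scaling, with detection on every array and with a doubled floor, and 1 to 4 leaving out 1 pool at a time (4 without plasma CI-AKI pool 2, 2 without plasma control pool 4). Between kidney and plasma 59 miRNAs were called where detection on every array was required, because 65 were then tested, none of them a muscle miRNA. The sign and the call of miR-133b were the same in all 34 alternatives that gave a value. The floor-set differences of miR-1, miR-133a and miR-206 also kept their sign (34 alternatives for miR-1, 28 for miR-133a and miR-206). Their sign is set by the filter and the floor, so it is no support. miR-133a and miR-206 were not tested without plasma pools 1, 2 or 3 of either group, since fewer than 6 arrays then detected them. The fitted difference of miR-499 turned to -1.31 with normexp, the cause was not tested, and it was above 0 in the other 33. The replicate block cannot change the plasma differences of miR-1 and miR-133b (0.30 and 0.47), since each number holds a pool of each treatment. With it the called numbers were 0 (plasma), 3 (kidney), 1 (interaction) and 165 (kidney minus plasma), and no call of a muscle miRNA changed. The letter code as a block gave 165 between tissues. On the fourth plasma pools miR-133a and miR-206 were below detection, which limits their treatment comparison.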

Other observations

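The other strand of the miR-1 hairpin, miR-1*, was the only further array miRNA of these families. It was detected on 0 of 8 kidney arrays and on 3 of 8 plasma arrays: CI-AKI pool 4, control pool 3 and control pool 4. On the plasma scale it read 3.98, 1.40, 1.78 and 23.0 in CI-AKI pools 1 to 4 and 1.98, 1.07, 2.63 and 45.2 in control pools 1 to 4. The highest values were those of the weak arrays, where 1 of 20 spots in CI-AKI pool 4 and 0 of 20 in control pool 4 were well above background.

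The miRNAs with the most similar pattern over 8 arrays were named by Pearson correlation of log2 signal, given as a description of arrays that share scaling and slide. In kidney, miR-133b went most closely with miR-143 (r = 0.93), a smooth muscle miRNA, and miR-499 with miR-450a (r = 0.93), miR-22* (r = 0.93) and miR-190 (r = 0.92). The next for miR-133b were miR-672 and miR-338 (r = 0.61 each). In plasma, miR-1 went most closely with miR-21 (r = 0.62), miR-16 (r = 0.58) and miR-484 (r = 0.50), and miR-133b with miR-494 (r = 0.83), miR-26a (r = 0.82) and miR-30a (r = 0.78). miR-133a went with miR-345-5p (r = 0.82), miR-296* (r = 0.81) and miR-423 (r = 0.79), and miR-206 with miR-874 (r = 0.75), miR-125a-3p (r = 0.73) and miR-188 (r = 0.67). Each r is among the highest of 95 or 96 tested miRNAs in plasma and of 175 or 176 in kidney. miR-133a and miR-206 in plasma and miR-133b in kidney were detected on 6 of the 8 arrays, so their r rests in part on values below detection.

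The muscle miRNAs were also set beside a blood-cell and a liver miRNA over the 8 plasma arrays. The correlations of miR-1, miR-133a, miR-133b and miR-206 with the erythroid miR-451 were 0.43, -0.12, -0.26 and -0.24, and with the liver miRNA miR-122 they were -0.40, 0.05, 0.45 and 0.07. Without pools 4, over 6 arrays, those with miR-451 were -0.07, -0.46, -0.06 and -0.39, and those with miR-122 were 0.69, 0.37, 0.41 and 0.20. A shared source was not tested.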
